A study of Mus musculus with 70 samples.

Results

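Cell cycle genes are described here across total liver and sorted liver macrophages of mice on a control or a steatohepatitis diet. They are 39 named genes, matched by symbol in the deposited count tables, where all 39 were present, among 23732 symbols shared by the 3 tables. By role they fall into 4 G1/S drivers, 8 origin licensing genes, 4 genes of replication and nucleotide supply, 7 mitotic cyclins and kinases, 6 genes of the chromosomal passenger complex and spindle checkpoint, 3 genes of the anaphase promoting complex and mitotic entry, and 7 spindle and chromosome genes. Foxm1, a transcription factor of mitotic genes, is counted with the G1/S drivers. The set is defined by gene function, with no threshold on a measured value.

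A cell that leaves quiescence first raises G1 cyclins and the E2F transcription factors, which switch on the genes for licensing origins and for making nucleotides and DNA. Genes of the G2 and M phases follow later, when the repressing DREAM complex gives way to B-Myb and FoxM1 at promoters that carry a CCAAT box and a CHR element (cell cycle genes homology region). Hepatocytes of an adult mouse are mostly quiescent and re-enter the cycle after injury, while resident macrophages of the liver, the Kupffer cells, renew themselves by division in place. Transcripts of these genes are commonly read as a measure of cycling cells, and in RNA of a whole tissue they do not say which cell type cycles.

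The series holds 70 RNA-seq libraries from mice fed for 24 weeks, in 16 groups of tissue, sex, genotype and diet. Mice of the genotype Lyz2.Cre+/+, in which Cre is driven by the lysozyme gene of myeloid cells, are called WT here, as in several sample titles. By label these control mice carry Cre too, which was not tested. Mice of the genotype OpnKI Mye, by name a knock-in for osteopontin in myeloid cells, are called KI (Spp1 is the osteopontin gene), and their Lyz2.Cre alleles are not given in the labels. The diets were a control diet and a NASH (nonalcoholic steatohepatitis) diet, and the samples were lysates of total liver or macrophages sorted as F4/80high CD11blow. Groups have 4 libraries each, apart from macrophage NASH groups, of which the male ones hold 5 libraries and the female ones 6, and male liver WT control, with n = 3. In that last group, replicates 3 and 4 differed by less than the sampling noise and were counted as 1 sample, written 3+4. The labels do not say which liver and macrophage samples share a mouse, and p-values measure only the spread between these samples.

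Total counts per library were 11245097 to 29966174 in male liver, 17917827 to 23669846 in female liver, 16512356 to 24317721 in male macrophages and 17151791 to 26244679 in female macrophages. Summed hepatocyte markers were 77300 to 183000 CPM (counts scaled to one common library size, after TMM normalization) in liver and 22.4 to 2510 CPM in macrophages, where summed Kupffer cell markers were 12100 to 33700 CPM. Spp1 in macrophages of control mice was at most 0.516 CPM in WT and at least 1.43 CPM in KI. On the NASH diet it overlapped between the genotypes in female macrophages (1.15 to 11.1 CPM in WT, 2.17 to 102 CPM in KI) and in male ones (5.72 to 55.9 and 43.7 to 199 CPM), and in total liver of males it was lower in KI (22.2 to 65.8 CPM) than in WT (133 to 698 CPM). Sex genes contradicted the label in 2 of 69 libraries, male liver WT control 3+4 and macrophage male WT control 4, which stay in their labelled groups. In bulk samples, fewer cells of a type and less RNA per cell cannot be told apart.

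The promoters of 5 of the genes are shown because genes of mitosis and of S phase gave different values in male liver and also differ in the words in their promoters. Of the 39 genes, 32 have an entry in the RefSeq promoter table (GRCm38.p6), which gives 250 bases before and 50 bases after each start. Aurkb, Ccna2, Ccne2, Foxm1, Kif20a, Mcm4 and Tpx2 have none. Capitals mark the matches on either strand to the CHR word TTTGAA, the CCAAT box (ATTGG on the other strand) and 4 E2F words, TTTCCCGC, TTTGGCGC, TTTCGCGC and TTTGCCGC. Positions count from 1 at the first base of the start, with the base before it at -1. Ccnb2 encodes cyclin B2, Cdk1 its kinase partner, Mcm6 a subunit of the replicative helicase, E2f1 a transcription factor of S phase entry and Rrm2 the small subunit of ribonucleotide reductase, and Rrm2 was chosen after its values were seen.
Ccnb2, chr9:70421505-70421804, minus strand: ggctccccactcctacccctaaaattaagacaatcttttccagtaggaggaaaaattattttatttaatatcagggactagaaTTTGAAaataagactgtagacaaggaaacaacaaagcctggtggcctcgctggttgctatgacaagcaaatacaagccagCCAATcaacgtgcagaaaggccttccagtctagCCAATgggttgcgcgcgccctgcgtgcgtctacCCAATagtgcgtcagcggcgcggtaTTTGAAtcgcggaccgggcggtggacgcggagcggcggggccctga
Cdk1, chr10:69352863-69353162, minus strand: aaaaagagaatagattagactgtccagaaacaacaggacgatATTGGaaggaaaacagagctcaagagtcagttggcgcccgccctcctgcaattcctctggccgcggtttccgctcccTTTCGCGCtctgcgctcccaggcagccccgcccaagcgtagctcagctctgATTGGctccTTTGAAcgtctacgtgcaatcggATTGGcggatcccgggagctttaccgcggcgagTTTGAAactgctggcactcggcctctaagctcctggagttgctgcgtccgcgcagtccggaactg
Mcm6, chr1:128359656-128359955, minus strand: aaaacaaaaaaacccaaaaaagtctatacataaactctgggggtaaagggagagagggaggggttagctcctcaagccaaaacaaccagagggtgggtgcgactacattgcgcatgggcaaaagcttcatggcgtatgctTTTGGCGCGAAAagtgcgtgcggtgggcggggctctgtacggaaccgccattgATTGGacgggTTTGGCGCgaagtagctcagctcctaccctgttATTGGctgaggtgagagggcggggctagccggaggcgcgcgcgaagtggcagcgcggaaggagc
E2f1, chr2:154569377-154569676, minus strand: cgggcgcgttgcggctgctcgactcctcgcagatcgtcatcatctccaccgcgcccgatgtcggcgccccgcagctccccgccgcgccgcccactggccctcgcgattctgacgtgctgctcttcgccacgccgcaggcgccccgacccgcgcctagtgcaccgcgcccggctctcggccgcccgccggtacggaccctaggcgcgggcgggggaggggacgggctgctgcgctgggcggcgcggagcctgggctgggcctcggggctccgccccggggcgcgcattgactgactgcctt
Rrm2, chr12:24708004-24708303, plus strand: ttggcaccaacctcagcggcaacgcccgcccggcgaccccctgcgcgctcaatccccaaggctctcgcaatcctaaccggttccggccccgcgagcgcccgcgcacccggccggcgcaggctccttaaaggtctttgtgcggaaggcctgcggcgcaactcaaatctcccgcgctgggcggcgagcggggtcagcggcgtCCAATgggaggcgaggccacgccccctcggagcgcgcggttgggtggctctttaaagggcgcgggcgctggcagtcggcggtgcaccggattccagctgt

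The Ccnb2 window holds a CHR word at 5 to 10 and another at -167 to -162, with 3 CCAAT boxes between them, the nearest at -21 to -17. Cdk1 has CHR words at -71 to -66 and -15 to -10, 3 CCAAT boxes on the other strand and 1 E2F word at -131 to -124. Mcm6 has no CHR word, 2 CCAAT boxes and 3 E2F words, of which those at -110 to -103 and -106 to -99 overlap. Rrm2 has 1 CCAAT box at -50 to -46, and no searched word lies in the E2f1 window, which falls inside the gene as GENCODE M21 annotates it (chr2:154559407-154569892).

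Over the 4 mitotic classes, 14 of 19 promoters in the table (73.7%) held a CHR word, 17 (89.5%) a CCAAT box and 1 (5.26%) an E2F word. Over the G1/S, licensing and replication classes these shares were 1 of 13 (7.69%), 7 of 13 (53.8%) and 6 of 13 (46.2%). Among all 27025 symbols of the table, 20.2% held a CHR word, 41.1% a CCAAT box and 2.6% an E2F word. A CHR word together with a CCAAT box stood in 73.7% of the mitotic promoters and in 7.97% of all. A match is a run of letters in this window, and binding was not measured. Whether the words relate to the values in male liver was not tested.

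Macrophages held far more of these transcripts than liver. On the control diet, mean CPM in WT macrophages was higher than in WT liver for 37 of 39 genes in males, with a median ratio of 14.4, and for 39 of 39 in females, with a median ratio of 13.1. These ratios are a description across tables that were normalized separately, and liver RNA itself includes that of macrophages. The spindle and chromosome genes had the highest median ratio of the 7 classes in males, 41.1, and replication and nucleotide supply the lowest in both sexes, 2.85 in males and 4.28 in females. Mki67, the proliferation marker Ki-67, stood at 1.42 CPM in male liver and 113 CPM in male macrophages. Only Ccne1 and Ccne2, the E cyclins that start S phase with Cdk2, were no higher in male macrophages, with ratios of 0.854 and 0.973.

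Per kilobase of exon, Pcna was the most and Ttk the least abundant of the 39 in both tissues of male WT controls. In liver Pcna, the sliding clamp of DNA polymerases, stood at 13.9 ± 1.93 CPM per kb (SD, n = 3), before Tk1, thymidine kinase, at 4.52 ± 2.1. The lowest were Ttk, the checkpoint kinase Mps1, at 0.0218 ± 0.0049, Bub1 at 0.0239 ± 0.0305 and Ccnb1 at 0.028 ± 0.0285 CPM per kb, which do not differ beyond their spread. In macrophages Pcna stood at 57.9 ± 8.62 CPM per kb (SD, n = 4) and Ttk at 0.496 ± 0.264. Ttk did not pass the filter on low counts in male liver, nor Bub1 in female liver, so 38 genes were tested in each, and all 39 passed in macrophages.

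**Figure D1:**
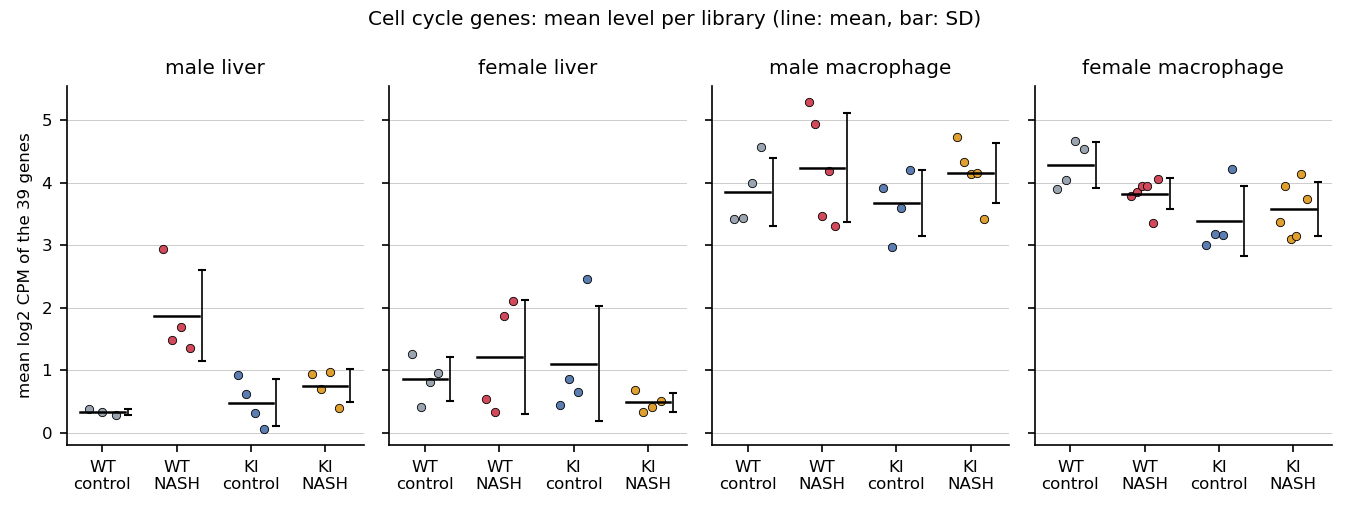
Mean log2 CPM over the 39 genes (vertical axis) in every library of the 16 groups, 1 point per library, with lines for group means. All macrophage libraries lie at 2.97 or above, and male liver WT NASH 1 at 2.94 and female liver KI control 4 at 2.46 stand apart in their groups.

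The NASH diet raised mitotic genes in the liver of WT males. Of 38 genes tested, 21 were higher and none lower on the NASH diet than on the control diet at an adjusted p under 0.05, against 21.0% of all 12988 genes called in either direction and 11.3% called higher. The median log2 fold change of the 38 was 1.81, against -0.01 over all genes. All 7 spindle and chromosome genes rose, as did 3 of 3 genes of the anaphase promoting complex and mitotic entry, 5 of 7 mitotic cyclins and kinases and 4 of 5 tested genes of the passenger complex and checkpoint. In the earlier phases 1 of 4 G1/S drivers, 1 of 8 licensing genes and 0 of 4 replication genes rose. Tests are edgeR quasi-likelihood tests, with p-values adjusted by Benjamini-Hochberg over all genes tested. Where signs are counted, 46.0 to 55.2% of all genes had a positive log2 fold change in the 24 comparisons.

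Top2a, the topoisomerase that untangles sister chromatids, read 0.962, 0.86 and 0.38 CPM in the 3 WT control livers and 13.4, 3.15, 5.03 and 3.58 CPM in the 4 WT NASH livers. The groups did not overlap, and Top2a had the smallest adjusted p of the 39 genes (log2 fold change 3.10, SE 0.575, adjusted p = 0.0034). Mki67 read 0.802, 1.38 and 2.09 CPM on the control diet and 26.2, 5.14, 5.86 and 4.28 CPM on the NASH diet. Every NASH library lay above every control library, and NASH replicate 1 far above the other 3 (log2 fold change 2.84, SE 0.71, adjusted p = 0.014). Prc1, which bundles the microtubules of the central spindle, rose from 0.16, 0.229 and 0.38 CPM to 10.1, 1.93, 2.15 and 1.69 CPM, again without overlap (log2 fold change 3.90, SE 0.78, adjusted p = 0.005).

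Among the mitotic cyclins, Ccna2, cyclin A2, read 0.481, 0.401 and 0.444 CPM in controls and 9.07, 2.49, 2.35 and 1.96 CPM on the NASH diet. Ccnb2 read 0.241, 0.516 and 0.127 CPM and then 8.42, 1.71, 1.32 and 1.26 CPM. Both rose without overlap, with log2 fold changes of 3.16 (SE 0.626, adjusted p = 0.0048) and 3.37 (SE 0.809, adjusted p = 0.011). Ccnb1, cyclin B1, had the largest fitted fold change (4.52, adjusted p = 0.016), but its 3 control libraries held 0 to 3 reads, 5 in all, so the size depends on the prior count. Cdc20, the activator of the anaphase promoting complex, rose by 4.11 (16 reads in all in controls), Plk1, the polo-like kinase of mitotic entry, by 3.42, and Aurka, the kinase of spindle poles, by 2.57 on the log2 scale.

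Cdk1 stood just outside the threshold. It read 1.76, 1.26 and 0.76 CPM in controls and 10.6, 2.65, 2.31 and 1.57 CPM on the NASH diet, so its lowest NASH library lay below its highest control (log2 fold change 1.78, SE 0.605, unadjusted p = 0.011). The adjusted p was 0.05 after rounding and did not pass. Aurkb and Cdca8, both of the chromosomal passenger complex, also missed it, with adjusted p = 0.052 and 0.051.

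G1 and S phase genes gave smaller values. E2f1 read 3.29, 4.07 and 2.15 CPM in controls and 7.2, 7.07, 6.68 and 8.45 CPM on the NASH diet, a rise of 1.21 (SE 0.244, adjusted p = 0.0051) in which NASH replicate 1 was like the other 3. Mcm6 rose from 4.65, 3.67 and 4.63 CPM to 14.4, 6.58, 13.4 and 12.8 CPM (log2 fold change 1.46, SE 0.444, adjusted p = 0.033). Mcm2, another helicase subunit, read 3.29, 2.92 and 3.8 against 8.94, 7.24, 12.2 and 8.72 CPM, which do not overlap, and its adjusted p was 0.069. All 8 licensing genes had positive log2 fold changes, from 0.16 in Mcm7 to 1.48 in Mcm2.

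None of the 4 replication genes passed, nor did the E cyclins. Pcna read 30.7, 38.7 and 30.7 CPM in controls and 32.8, 33.3, 34.3 and 30.8 CPM on the NASH diet (log2 fold change -0.03, adjusted p = 0.87). Rrm2 read 10.1, 10.9 and 4.18 CPM against 6.81, 4.97, 5.57 and 4.52 CPM, with the library of contradicting sex genes lowest (log2 fold change -0.62, adjusted p = 0.12). Ccne1 read 4.25, 6.13 and 2.15 CPM against 3.1, 2.87, 2.27 and 3.1 CPM (log2 fold change -0.56, adjusted p = 0.29). Tk1 and Rrm2 were the only members under an unadjusted p of 0.05 with lower values on the NASH diet, and Tk1 had a log2 fold change of -0.84 and an adjusted p of 0.086.

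In 27 of the 38 genes every NASH library lay above every control library, against 14.5% of all genes, and in none below. WT NASH 1 stood apart: its mean log2 CPM over the 39 genes was 2.94, against 1.36 to 1.69 in the other 3 NASH livers and 0.29 to 0.38 in controls. The same library had 62.2 CPM of summed cholangiocyte markers against 8.79 to 20 CPM, 364 CPM of stellate markers against 137 to 227 CPM and 44.3 CPM of recruited monocyte markers against 18 to 32.1 CPM in the other NASH livers. WT controls had 4.87 to 7.06 CPM, 56.3 to 80 CPM and 4.33 to 9.25 CPM of these markers, and between the diets 2 of 5, 2 of 5 and 3 of 5 of the genes were higher while 4 of 6 hepatocyte markers were lower. Their part in the result was not tested. Without WT NASH 1, 13 genes rose, all 13 among the 21, with 15.0% of all genes called and a median log2 fold change of 1.3: E2f1, Ccna2, Ccnb1, Ccnb2, Aurka, Cdc20, Ube2c, Cdca3, Mki67, Top2a, Nusap1, Tpx2 and Prc1. Without WT control 1 there were 12 calls, all among the 21, with 10.7% of all genes called. Without WT control 2 there were 10, with 8.47% of all genes called. Of these, 9 were among the 21 and the tenth was a fall in Tk1 (log2 fold change -1.17). Without the library of contradicting sex genes 16 rose, all among the 21, and Rrm2 fell by 0.95 on the log2 scale. In that fit 25.5% of all genes were called.

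**Figure D2:**
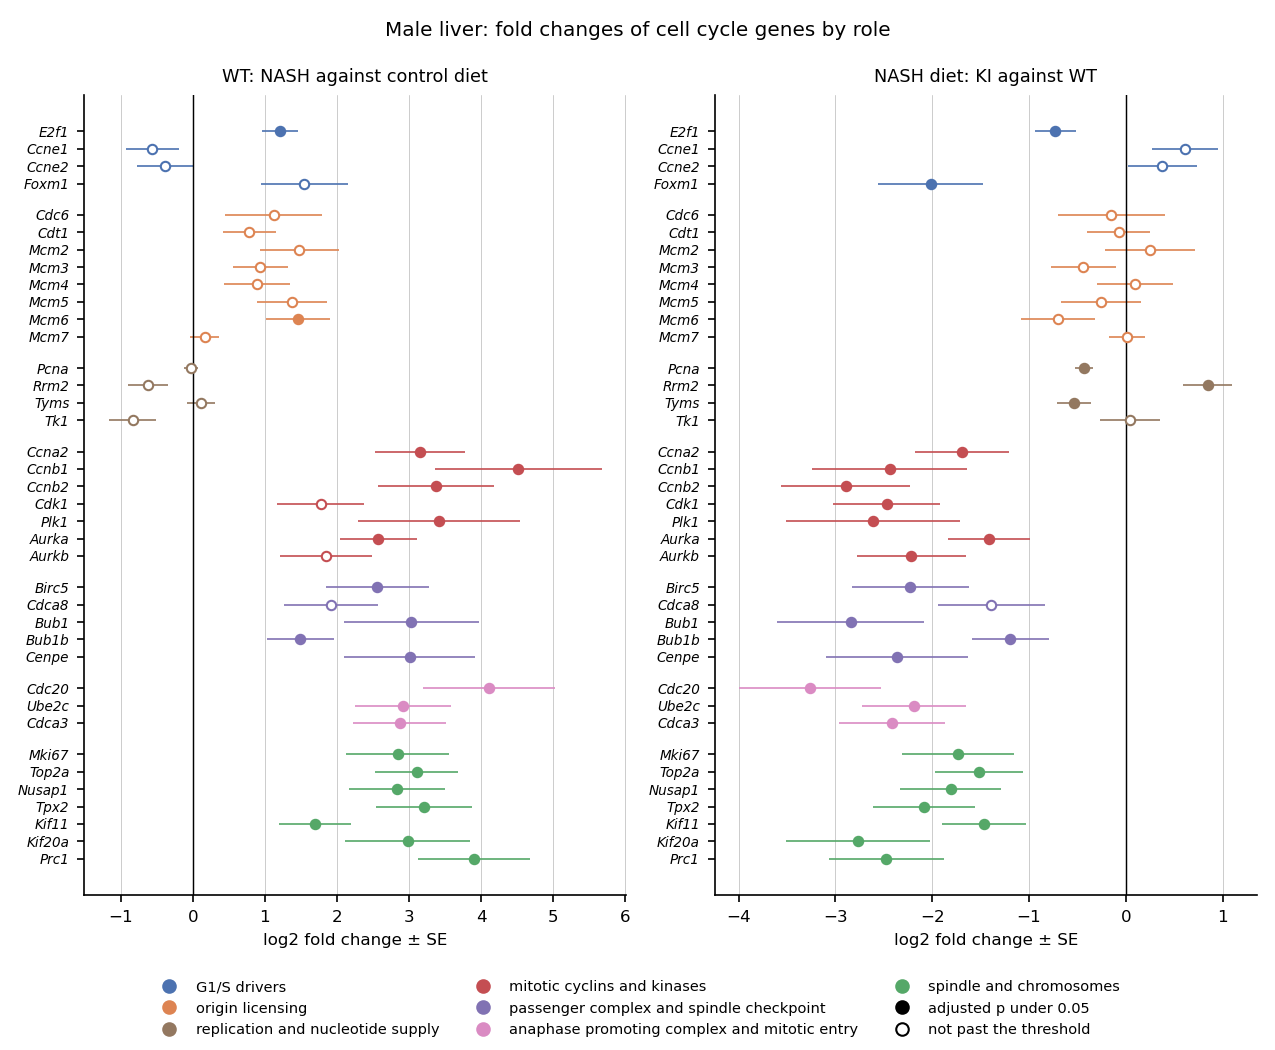
Log2 fold change (horizontal axis) of each gene in male liver with bars of 1 standard error, by role, for NASH against control diet in WT and for KI against WT on the NASH diet; filled points passed an adjusted p under 0.05. Mitotic genes lie to the right in the one and to the left in the other, and licensing and replication genes lie nearer 0.

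KI livers of males on the NASH diet had less of the mitotic transcripts than WT livers on the same diet. Of 38 genes, 25 were lower and 1 higher in KI, against 37.0% of all genes called in either direction and 17.4% called lower. The median log2 fold change was -1.49, against -0.02 over all genes. All 7 mitotic cyclins and kinases, all 7 spindle and chromosome genes, 3 of 3 genes of the anaphase promoting complex and mitotic entry and 4 of 5 genes of the passenger complex and checkpoint were lower, with Cdca8 the exception (log2 fold change -1.39, adjusted p = 0.061). Of the 8 licensing genes none passed in either direction, with log2 fold changes from -0.70 to 0.25. This comparison uses the same WT NASH libraries as the one before.

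Cdk1 was even across the KI livers, at 0.775, 0.786, 0.778 and 0.742 CPM against the 1.57 to 10.6 CPM of WT NASH given above. Every KI library lay below every WT library, with a log2 fold change of -2.47 (SE 0.555, adjusted p = 0.0039). Cdc20 read 0.912, 0.419, 0.846 and 0.325 CPM in KI against 17.2, 2.54, 2.97 and 1.81 CPM in WT (log2 fold change -3.26, SE 0.733, adjusted p = 0.0039). Cdca3, a trigger of mitotic entry, read 2.01, 0.943, 1.35 and 1.02 CPM against 18.4, 4.31, 3.67 and 2.24 CPM (log2 fold change -2.42, SE 0.547, adjusted p = 0.004). Neither gene overlapped between the groups, and WT NASH 1 was the highest library in both.

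Mki67 was lower too, but with overlap: KI livers read 3.83, 1.52, 5.07 and 1.9 CPM, and 1 of them lay above the lowest WT value of 4.28 CPM (log2 fold change -1.74, SE 0.581, adjusted p = 0.031). Top2a read 2.46, 1.68, 2.91 and 1.72 CPM, all below the lowest WT value of 3.15 CPM (log2 fold change -1.51, SE 0.45, adjusted p = 0.018). Ccna2 at 1.64, 0.733, 1.66 and 0.835 CPM and Ccnb2 at 0.502, 0.105, 0.541 and 0.51 CPM also lay wholly below WT, with log2 fold changes of -1.69 and -2.89. Among the G1/S drivers E2f1 read 3.79, 4.29, 3.99 and 5.71 CPM in KI, below every WT library (log2 fold change -0.73, adjusted p = 0.017). Foxm1, counted in the same class although it is a transcription factor of mitotic genes, had a log2 fold change of -2.01 (adjusted p = 0.011).

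Replication genes went both ways. Pcna had the smallest adjusted p of this comparison with a small change: KI livers read 22.5, 23.8, 24.2 and 26.7 CPM against 30.8 to 34.3 CPM in WT (log2 fold change -0.43, SE 0.095, adjusted p = 0.0034). Tyms, thymidylate synthase, read 4.1, 4.24, 5.31 and 4.55 CPM against 5.46 to 8.86 CPM (log2 fold change -0.53, adjusted p = 0.029). Rrm2 was the 1 gene that rose, at 10.6, 11.7, 10.3 and 6.68 CPM in KI against 4.52 to 6.81 CPM in WT (log2 fold change 0.85, SE 0.255, adjusted p = 0.019). Of the KI libraries 1 fell inside the WT range. Rrm2 did not pass when either WT NASH 4 or KI NASH 2 was left out, where its largest adjusted p was 0.0551.

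Licensing genes in KI NASH 2 went against the mitotic genes of the same library. Mcm2 read 26.5 CPM there, against 8.03, 5.61 and 4.22 CPM in the other KI NASH livers, and Mcm6 13.2 CPM against 5.61, 6.22 and 4.27 CPM. The mean log2 CPM of the 8 licensing genes was 3.55 in that liver, the highest of the 15 male livers, while its mean over the mitotic cyclins and kinases was -1, the lowest of the KI NASH group, and Ccnb2 was its group's lowest at 0.105 CPM.

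In 18 of 38 genes every KI NASH liver lay below every WT NASH liver, against 16.4% of all genes. Without WT NASH 1, 12 genes passed, all 12 among the 26, with 29.6% of all genes called and a median log2 fold change of -0.74. They were E2f1, Foxm1, Pcna, Ccnb2, Cdk1, Aurkb, Cdc20, Ube2c, Cdca3, Tpx2 and Prc1, all lower, and Rrm2, higher. Mki67 then had a log2 fold change of -0.71 (adjusted p = 0.217) and Top2a one of -0.84 (adjusted p = 0.0838). Without the library of contradicting sex genes the same 26 passed, with 39.6% of all genes called.

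No gene of the set passed for NASH against control diet in KI males, where no gene of all 12988 did (0%). By unadjusted p 3 of 38 were under 0.05, against 6.52% of all genes, DESeq2 called 0, and the median log2 fold change was 0.39. KI control livers read 3.69, 3.6, 1.57 and 1.51 CPM of Mki67 and 1.98, 1.5, 0.758 and 0.785 CPM of Top2a, ranges that the KI NASH livers overlap. For the diet effect in KI minus that in WT, edgeR called 0 of 38, with 1.13% of all genes called. DESeq2 called 7, all lower, with 719 of all 12988 genes called. The median of this difference was -1.98, 34 of 38 genes had a negative sign, and 19 had an unadjusted p under 0.05, against 20% of all genes. Without WT NASH 1 the median was -1.05, with 13 genes at an unadjusted p under 0.05. For Mki67 the difference over all libraries was -2.58 (SE 0.911, adjusted p = 0.15, edgeR) and for E2f1 -1.06 (SE 0.325, adjusted p = 0.12, edgeR). A difference between the genotypes in the response to diet thus passed for 0 genes of the set with edgeR and for 7 with DESeq2.

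Between genotypes on the control diet, Rrm2 alone was called in males, against 4.67% of all genes. It read 20.3, 14.2, 17.1 and 17.5 CPM in KI, above all WT controls (log2 fold change 1.04, SE 0.279, adjusted p = 0.049). That call ended when any of 13 single libraries was left out, and without the library of contradicting sex genes. Under DESeq2 there were 2 calls, 1 in each direction, with 1323 of all 12988 genes called.

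Of 69 other cell cycle genes, 67 were tested in male liver, and on the NASH diet in WT 16 rose and 2 fell, against 21.0% of all genes called (11.3% higher), with a median log2 fold change of 0.36. Other mitotic genes rose in 10 of 16 cases, among them Racgap1 (3.54) and Hmmr (3.72), which act on the central spindle and on spindle poles, and other replication genes in 6 of 17, among them Uhrf1 (2.56), the maintenance factor of DNA methylation, and Gins2 (1.53), a partner of the replicative helicase. The G1 cyclins and their kinases gave 0 of 6 calls and the inhibitors 0 of 7. The genes that fell were Rbl2 (-0.49), a pocket protein of the DREAM complex, and the p53 target Trp53inp1 (-1.95).

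Between KI and WT on the NASH diet, 17 of the 67 were lower and 4 higher, against 37.0% of all genes called (17.4% lower). The lower ones included 12 of 16 other mitotic genes, such as Melk (-3.75) and Mad2l1 (-1.56), the latter a spindle checkpoint protein, and the inhibitors Cdkn1c (-1.67) and Cdkn2c (-1.60). Those that rose were Cdk6 (1.15), a G1 kinase, the repressor E2f7 (2.50), and Rbl2 (0.46) and Lin54 (0.50), both of the DREAM complex. Marker genes of other cell types moved in the same livers: 4 of 5 stellate, 4 of 5 cholangiocyte, 2 of 5 recruited monocyte and 2 of 5 tested B and plasma cell markers were lower in KI, 2 of 4 tested neutrophil markers were higher, and 0 of 6 Kupffer cell markers passed. KI livers had 4.78 to 9.35 CPM of summed cholangiocyte markers against 8.79 to 62.2 CPM in WT, and 62.2 to 95 CPM of summed stellate markers against 137 to 364 CPM. Their part in the result was not tested.

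In female WT liver the diet moved no gene of the set past the threshold. EdgeR called 0 of 38 (0.0526% of all genes called), DESeq2 0, and 1 had an unadjusted p under 0.05, against 13.7% of all genes. The log2 fold change was positive in 36 of 38 genes, with a median of 0.57, which was 0.21 without WT NASH 3 and 0.18 without WT NASH 4. The 4 NASH livers lay in pairs, with mean log2 CPM over the 39 genes of 0.55 and 0.33 in replicates 1 and 2 and of 1.87 and 2.11 in replicates 3 and 4. Mki67 read 6.38, 2.99, 11.3 and 13.6 CPM in these 4 and 5.7, 3.66, 5.17 and 7.85 CPM in WT controls, so replicates 3 and 4 lay above every control and replicate 2 below every control. Mcm6 showed the same split, at 5.3, 4.72, 17.4 and 35.1 CPM against 14.8, 7.47, 4.75 and 5.05 CPM in controls. Replicates 3 and 4 also had more summed Kupffer cell markers, 681 and 575 CPM against 402 and 496 CPM, and recruited monocyte markers, 18.7 and 16.9 CPM against 11 and 11.7 CPM. Their summed neutrophil markers were higher too, 12.1 and 6.75 CPM against 1.29 and 1.62 CPM. Summed sinusoidal endothelial, B and plasma cell and erythroid markers were lower in them. The part of these cell types in the result was not tested.

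KI females had no calls against WT on the NASH diet either. Of 38 genes 0 passed with edgeR and with DESeq2 (0.0901% of all genes called by edgeR), and 10 had an unadjusted p under 0.05, all lower in KI, against 13.0% of all genes in either direction. The log2 fold change was negative in 37, with a median of -1.02. KI NASH livers were even, with Mki67 at 4.34, 3.39, 3.65 and 3.98 CPM and Cdk1 at 1.07, 0.813, 0.913 and 0.753 CPM. For Cdk1, WT NASH livers read 1.51, 0.456, 2.96 and 3.31 CPM, on both sides of the KI range.

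**Figure D3:**
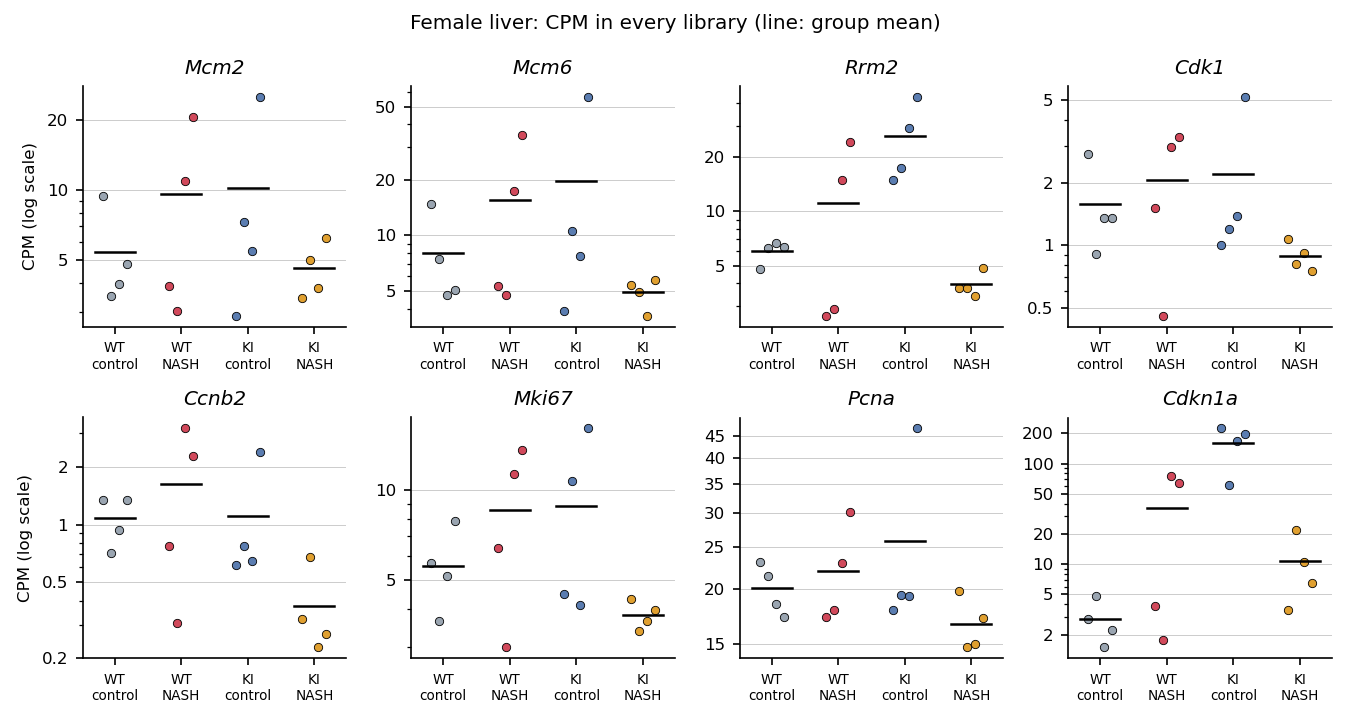
CPM on a log scale of 8 genes in each female liver library, by group, with lines for group means. KI control 4 and WT NASH 3 and 4 lie high for most of the cycle genes, and Rrm2 and Cdkn1a are high in all 4 KI control livers.

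KI control 4 of the female livers stood above its group across the phases. Its mean log2 CPM over the 39 genes was 2.46, against 0.45 to 0.86 in the other 3. Top2a read 11.9 CPM there and 1.34, 2.75 and 1.89 CPM in the others, Pcna 46.9 CPM against 17.9, 19.4 and 19.3 CPM, and E2f1 11.6 CPM against 1.17, 2.79 and 1.79 CPM. Its summed cholangiocyte (6.96 CPM), recruited monocyte (8.5 CPM) and Kupffer cell markers (349 CPM) were not above those of every other female KI control liver. Its summed stellate markers, 148 CPM, were above the 108 to 136 CPM of the others, and its summed hepatocyte markers, 147000 CPM, above their 94900 to 128000 CPM. Their part in the result was not tested.

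Rrm2 was the 1 gene of the set called in female liver. It read 15, 17.5, 29 and 43.3 CPM in KI controls and 4.81, 6.28, 6.66 and 6.36 CPM in WT controls, with no overlap (log2 fold change 2.12, SE 0.553, adjusted p = 0.032, with 7.57% of all genes called). On the NASH diet KI livers read 3.75, 3.75, 3.38 and 4.84 CPM, a fall of 2.74 from KI controls (SE 0.573, adjusted p = 0.012, with 8.83% of all genes called). WT NASH livers read 2.63, 2.89, 14.9 and 24.4 CPM, the same split as above. The diet effect in KI minus that in WT was -3.63 (SE 0.788, adjusted p = 0.023, with 4.77% of all genes called). Under DESeq2 this difference was called in 4 genes and the diet effect in KI in 2, all lower, with 1253 and 1800 of all 13315 genes called. For both, 37 of 38 genes had a negative sign, with medians of -1.49 for the difference and -0.79 for the diet effect in KI. Without KI control 4 these medians were -0.59 and -0.12, and the median for KI against WT on the control diet turned from 0.50 to -0.32. The rise in KI controls was lost when any 1 of 6 libraries was left out (KI control 3 or 4, or any WT control), while the fall and the difference held in each of 16 such fits.

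Cdkn1a, the inhibitor p21, is not in the set but was high in the same female livers as Rrm2. It read 224, 61, 167 and 196 CPM in female KI controls and 1.49 to 4.85 CPM in WT controls (log2 fold change 5.83, adjusted p = 0.0063). In WT NASH livers it read 3.88, 1.77, 74.8 and 63.8 CPM, high in the same 2 libraries as Rrm2, and in KI NASH livers 3.53 to 21.9 CPM (log2 fold change -3.92 against KI controls, adjusted p = 0.019). Of the 65 other cell cycle genes tested, Cdkn1a was the only 1 higher in KI controls, and Ccnd2 (-0.75) and Cdk6 (-0.98), a G1 cyclin and a G1 kinase, were lower. Lyz2 differed between these groups too, at 19.9 to 43.4 CPM of the library total in female KI controls and 1.05 to 2.58 CPM in WT controls. On the NASH diet female KI livers read 1.25 to 69 CPM and WT livers 1.4 to 2.15 CPM. In male liver Lyz2 was higher in WT, at 33.5 to 96 CPM in controls and 139 to 310 CPM on the NASH diet. Male KI livers read 0.48 to 26.8 CPM and 1.1 to 54.9 CPM. The part of Lyz2 in the liver results was not tested.

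The sexes were compared within 1 fit of all livers on 39 genes. Male and female livers were deposited in separate tables, so sex and table cannot be told apart in these differences. For the diet effect in WT, female minus male, edgeR called 0 (1.68% of all genes called) and DESeq2 5, all lower (503 of all 13415 genes called). Of the 39 genes, 15 had an unadjusted p under 0.05, against 18% of all genes. The 4 mitotic classes had median differences of -2.58 to -2.18, the G1/S, licensing and replication classes of -0.22 to 0.44. The median over the 39 genes was -1.44, and -0.74 without male WT NASH 1, with 7 genes at an unadjusted p under 0.05. For the KI effect on the NASH diet Rrm2 was the 1 call (female minus male -2.38, SE 0.652, adjusted p = 0.016, with 14.0% of all genes called). That call ended without female WT NASH 4. Without the library of contradicting sex genes the liver sex differences gave the same number of calls, 0 and 1.

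In male macrophages edgeR called no gene of the set in the 5 comparisons within the sex. For NASH against control diet in WT, edgeR called 0 of 39 (8.19% of all genes called), DESeq2 0, and 2 had an unadjusted p under 0.05, against 25.2% of all genes. For the same contrast in KI edgeR called 0 (24.0% of all genes called) and DESeq2 1 (3715 of all 13036 genes called). By unadjusted p 3 were under 0.05, against 37.1%. The log2 fold change was positive in 38 and 37 of 39 genes, with medians of 0.48 and 0.55. For KI against WT on the control diet (0% of all genes called, 6.61% at an unadjusted p under 0.05), on the NASH diet (3.13% and 16.9%) and for the difference of the diet effects (0% and 12.2%), both tools called 0 of the 39, and none had an unadjusted p under 0.05.

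The spread within groups was wide. Mki67 read 85.2, 79.3, 115 and 171 CPM in male WT controls, highest in the library of contradicting sex genes, and 234, 200, 55.9, 142 and 72.1 CPM on the NASH diet. KI controls read 111, 39, 67.3 and 104 CPM and KI NASH macrophages 263, 155, 122, 171 and 77.4 CPM. In both genotypes the lowest NASH library lay within or below the range of its controls. Ccnb2 in WT read 5.47, 3.71, 7.89 and 12.3 CPM and then 30.4, 17.1, 6.95, 12.9 and 5.12 CPM, and Mcm6 36.2, 44.4, 59.9 and 86.3 CPM and then 117, 104, 37.8, 62.9 and 38.9 CPM, so NASH replicates 1 and 2 were high for both phases. E2f1 was the 1 gene with a negative log2 fold change in WT (-0.13), at 35.6 to 48.2 CPM in controls and 26.7 to 50.4 CPM on the NASH diet. Without the library of contradicting sex genes (WT control 4) edgeR again called 0 in each of these comparisons, the median for the diet effect in WT was 0.83, with 10 genes at an unadjusted p under 0.05, and that for KI against WT on the control diet turned from -0.16 to 0.12.

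Outside the set, male KI macrophages on the NASH diet had 7 higher and 1 lower of 69 other cell cycle genes, against 24.0% of all genes called. The higher ones were Ccnd2 (1.19) and Cdk6 (0.82), the inhibitor Cdkn2d (0.55), Cks2 (0.60), a small subunit of cyclin-dependent kinases, and the p53 targets Mdm2 (0.74), Gadd45a (1.39) and Trp53inp1 (0.50). The lower one was E2f4 (-0.27), a repressing E2F. In the same comparison 5 of 6 hepatocyte, 4 of 5 recruited monocyte and 5 of 6 tested T and NK cell markers were higher and 4 of 6 Kupffer cell markers lower. Summed recruited monocyte markers were 141 to 490 CPM on the NASH diet and 79.4 to 198 CPM in KI controls, and summed Kupffer cell markers 12100 to 25900 CPM and 27500 to 30300 CPM, and their part in the result was not tested.

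Few genes of the set passed for the NASH diet in female WT macrophages. Of 39 genes, 3 were lower and none higher, against 12.9% of all genes called and 4.42% called lower, so the share of the set was near the background. They were Ccne1, Ccne2 and Cdc6, the last a loader of the replicative helicase. Ccne2 read 2.66, 2.75, 5.45 and 4.68 CPM in controls and 1.62, 2.03, 1.53, 1.64, 1.31 and 1.39 CPM on the NASH diet, without overlap (log2 fold change -1.29, SE 0.35, adjusted p = 0.024). Ccne1 read 3.32, 4.91, 6.07 and 6.85 CPM against 2.37, 2.46, 2.97, 3.62, 1.94 and 3.17 CPM, which overlap in 1 library (log2 fold change -0.93, SE 0.257, adjusted p = 0.026). Cdc6 read 7.06, 8.01, 13 and 12.9 CPM against 5.13, 4.38, 5.61, 6.06, 4.36 and 7.54 CPM (log2 fold change -0.89, SE 0.265, adjusted p = 0.035).

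All 39 genes had a negative log2 fold change in that comparison, with a median of -0.45, and 9 had an unadjusted p under 0.05, against 28.7% of all genes. Mki67 read 105, 111, 179 and 105 CPM in controls and 87 to 126 CPM on the NASH diet (log2 fold change -0.26, adjusted p = 0.56). No call was left without WT control 3 or without WT control 4 (5.91% and 6.92% of all genes called), and 1 was left without WT NASH 5 (8.28%). Without KI control 4 there were 5 calls (12.8% of all genes called), and under DESeq2 also 5 (2183 of all 12838 genes called). Of 69 other cell cycle genes, 5 rose and 1 fell, against the 12.9% above: Mdm2 (0.68), Gadd45a (1.44), Btg2 (0.54) and Plk2 (1.16), all p53 targets, and the inhibitor Cdkn1b (0.27) rose and Kif23 (-0.87), a motor of the central spindle, fell. Of the markers, 4 of 6 hepatocyte and 2 of 4 tested recruited monocyte genes were higher and 2 of 6 Kupffer cell genes lower. Summed hepatocyte markers were 209 to 1630 CPM on the NASH diet and 110 to 326 CPM in controls, and their part in the result was not tested.

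In female macrophages on the control diet 3 genes of the set were lower in KI than in WT, 2 of replication and nucleotide supply and 1 of the mitotic cyclins and kinases. The log2 fold change was negative in all 39 genes, with a median of -0.88 against 0.00 over all genes, and 3 passed after adjustment, against 4.64% of all genes called and 1.91% called lower. The 3 were Pcna, Tyms and Aurka. By unadjusted p 36 were under 0.05, against 21.5% of all genes. DESeq2 called 18, all lower, with 1163 of all 12838 genes called. Median log2 fold changes by class ran from -0.97 in the anaphase promoting complex and mitotic entry genes to -0.74 in replication and nucleotide supply, though in 5 of the 7 classes no gene passed.

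Pcna read 133, 130, 152 and 155 CPM in WT and 94.1, 104, 99 and 112 CPM in KI, without overlap (log2 fold change -0.48, SE 0.111, adjusted p = 0.021). Tyms read 7.99, 9, 12.8 and 13.3 CPM against 4.6, 4.65, 4.08 and 8.01 CPM (log2 fold change -1.01, SE 0.26, adjusted p = 0.032), and Aurka 6.37, 7.13, 10.7 and 7.76 CPM against 4.21, 3.74, 3.32 and 6.49 CPM (log2 fold change -0.85, SE 0.233, adjusted p = 0.043). In both, KI control 4 was the 1 KI library that reached the WT range. Mki67 read 51.4, 55.8, 48.9 and 120 CPM in KI, where 3 libraries lay under every WT control and KI control 4 inside the WT range (log2 fold change -0.85, SE 0.298, adjusted p = 0.1). Rrm2 did not pass, at 6.6, 12, 9.6 and 23.2 CPM against 16.8, 24.1, 41.1 and 42.8 CPM (log2 fold change -1.28, SE 0.381, adjusted p = 0.059), where its sign was opposite to that in liver.

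The count depended on single libraries. Without KI control 4, 37 of 39 genes were lower in KI (all but Cdt1 and Tk1), with a median log2 fold change of -1.28 and 7.08% of all genes called. Without WT control 3, WT control 4 or KI control 1 there was no call (2.36%, 2.17% and 2.4% of all genes called). Without KI control 2 or KI control 3 there was 1 (2.01% and 3.69%), without KI NASH 3 there were 5 (4.74%) and without KI NASH 5 there were 8 (5.96%). Lyz2, the gene that drives Cre in WT, read 95.6, 71.2 and 93.0 CPM of the library total in KI control 1, 2 and 3 and 2973 CPM in KI control 4. It was low in WT control 1, 3 and 4 (95.4 to 166 CPM) and high in WT control 2 (2645 CPM). With both high libraries left out, an alternative chosen after seeing the data, 37 of 39 genes were lower, with a median of -1.35 and 5.18% of all genes called. KI controls had 10.2 to 15.2 CPM of summed stellate markers against 45 to 71.4 CPM in WT controls, and 22.4 to 62.8 CPM of hepatocyte markers against 110 to 326 CPM, with 3 of 5 and 2 of 6 of these genes lower in KI. Of the other lists, 1 of 4 tested recruited monocyte genes was higher and 1 of 6 Kupffer cell genes lower, and their part in the result was not tested.

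**Figure D4:**
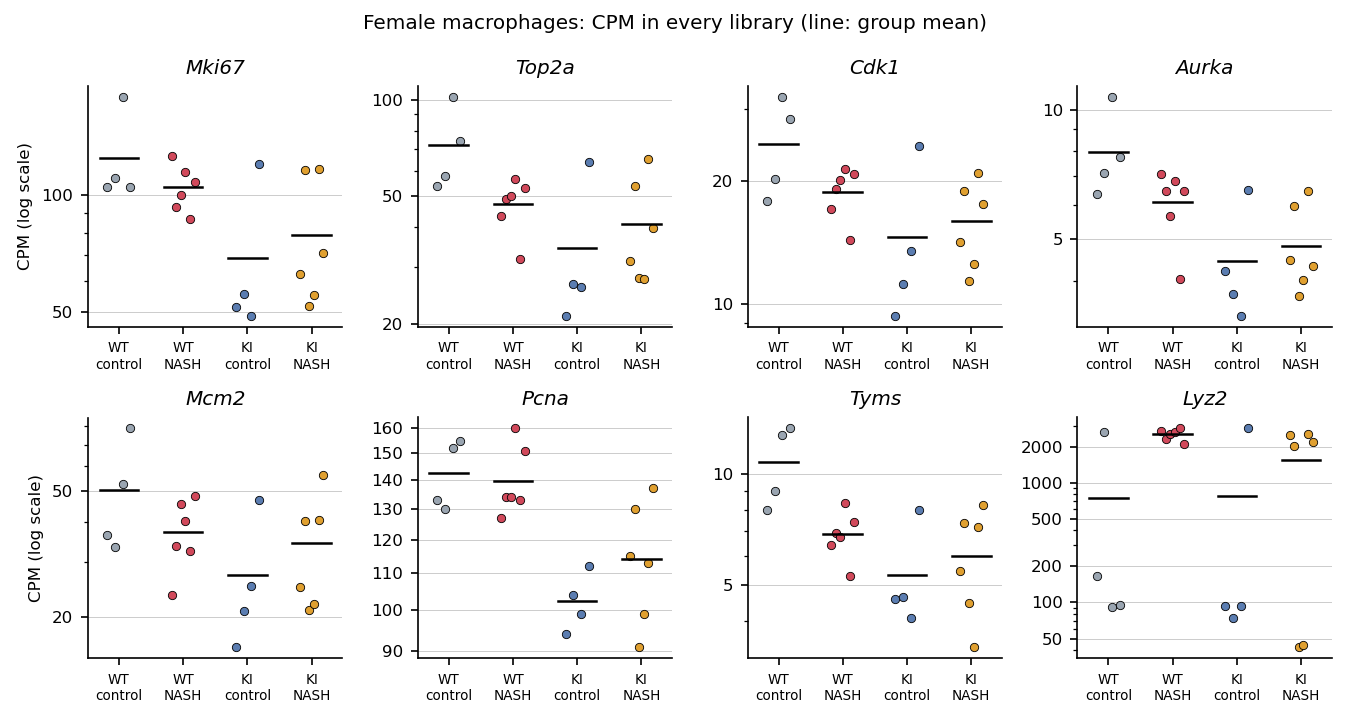
CPM on a log scale of 7 cycle genes and Lyz2 in each female macrophage library, by group, with lines for group means. For Mki67 and Top2a 3 of 4 KI control libraries lie below every WT control, and KI control 4, which is high for Lyz2, lies inside the WT range.

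Across all 10 KI female macrophage libraries of both diets, the 5 with low Lyz2 (43.3 to 95.6 CPM) had a mean log2 CPM over the 39 genes of 3.00 to 3.17, and the 5 with high Lyz2 (2030 to 2970 CPM) of 3.37 to 4.22. In the 10 WT female libraries these ranges were 3.90 to 4.66 in the 3 with low Lyz2 and 3.35 to 4.05 in the 7 with high Lyz2. Among all 38 macrophage libraries 10 were low (under 500 CPM) and 28 high for Lyz2, and their part in the genotype and diet results was not tested.

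Between KI and WT female macrophages on the NASH diet no gene passed. EdgeR called 0 of 39 (0.561% of all genes called) and DESeq2 1 (532 of all 12838 genes called). With edgeR 1 gene had an unadjusted p under 0.05, against 18.5% of all, and the median log2 fold change was -0.22. For NASH against control diet in KI both tools called 0 (2.31% of all genes called by edgeR), with none under an unadjusted p of 0.05, against 19.6% of all genes, and a median log2 fold change of 0.16. Without KI control 4 that median was 0.60, with 20 genes at an unadjusted p under 0.05, and with WT control 2 left out as well 0.60 with 19. The diet effect in KI minus that in WT was positive in all 39 genes, with a median of 0.66, and both tools called 0 (0.288% of all genes called by edgeR), with 6 under an unadjusted p of 0.05, against 9.18% of all genes. Without KI control 4 the median was 1.06, with 35 genes at an unadjusted p under 0.05, and with WT control 2 left out as well 1.11 with 36. Both fits called 0. These comparisons share their KI or WT libraries with those above.

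Beside Ccnd2 (1.97), Cdkn2b (1.37), an inhibitor of G1 kinases, and E2f3 (0.47), which were higher in KI female macrophages on the control diet, Pola1 (-0.57), a DNA polymerase subunit, Kif23 (-0.56), Smc2 (-0.50), a condensin subunit, and Mad2l1 (-0.73) were lower. Those are 3 higher and 4 lower of 69 other cell cycle genes, against 4.64% of all genes called.

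For the diet effect in WT macrophages, female minus male, all 39 genes had a negative difference, with a median of -1.05. EdgeR and DESeq2 called 0 (0.0224% of all genes called by edgeR), and 24 had an unadjusted p under 0.05, against 17.1% of all genes. Without male WT control 4, the library of contradicting sex genes, the median was -1.39, with 0 calls and 33 genes at an unadjusted p under 0.05. For the KI effect on the NASH diet the median difference was 0.06, both tools called 0 (4.37% of all genes called by edgeR) and no gene had an unadjusted p under 0.05, against 14.9% of all.

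**Figure D5:**
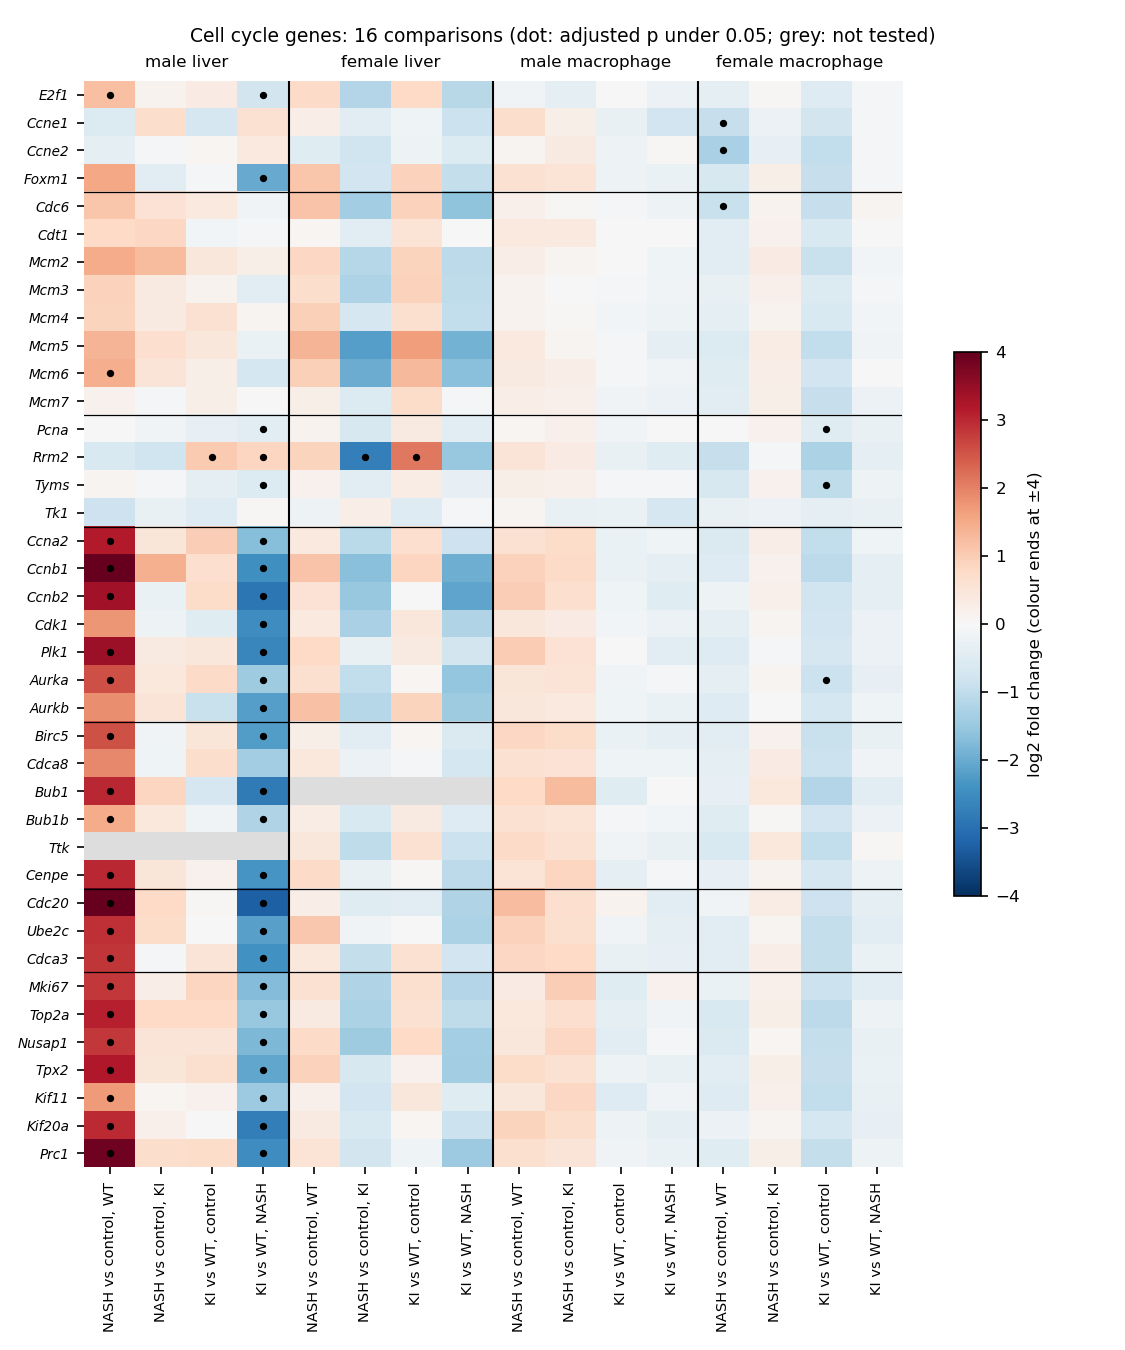
Log2 fold changes (colour) of the 39 genes, in rows by role, over the comparisons within each tissue and sex, in columns; marked cells passed an adjusted p under 0.05. Marks gather in 2 columns of male liver, 21 for NASH against control diet in WT and 26 for KI against WT on the NASH diet.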

How the data were processed

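RNA-seq was read from 70 libraries (TruSeq Stranded mRNA, per the labels' protocols). The authors deposited whole-number counts per gene symbol, which have not been normalized, in 3 tables. The genome build was mm10, per the submitters' processing notes. For the aligner, the counter, the annotation and the use of strand, the details were not given in the sources used here.

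Genes with low counts were filtered with edgeR 4.0.16 (R 4.3.3; filterByExpr, minimum count 10, minimum total 15), scaled by TMM and tested with quasi-likelihood tests, 1 fit for each tissue and sex and 1 for each tissue with both sexes, 24 comparisons in all. P-values were adjusted by Benjamini-Hochberg over all genes tested, with a threshold of 0.05. Standard errors are approximate, from the fold change and its F statistic. CPM are TMM-scaled within a tissue and sex, and mean log2 CPM used a prior count of 2. The procedure was tested on simulated data with the same fixed spread for every gene and changes only in genes above a minimum mean count. No simulated library stood apart, so that test does not cover genes of few reads or groups with an outlying library. Alternatives were DESeq2 1.42.0, its size factors, no filter, a block for replicate number, other treatments of the library deposited in 2 versions, and single libraries left out. Per-kilobase levels used GENCODE M21 exon lengths.

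The genes, roles, other lists and marker lists were chosen with earlier results of these data known. CPM in every library are given for 11 genes that stand for the phases. Per comparison, also named are the 4 genes of smallest adjusted p in each direction, any called gene against the majority and genes of a role under description. Other cell cycle genes are named where they passed. Same-numbered samples were treated as unpaired: in 0 of 16 pairs of groups did every correlation of their deviations exceed 0.1. That rule cannot detect pairing of only some samples. Of 65 single correlations, 19 exceeded 0.1, in a range of -0.32 to 0.56. The highest were between WT and KI macrophages on the NASH diet, 0.56 for male replicate 2, 0.52 for male replicate 4 and 0.51 for female replicate 4. What these samples share was not tested.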

Additional observations from a re-analysis of the deposited data

Results flagged for a closer look

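Mean levels and the 11 genes given in every library were checked for 1 library far from the rest of its group, in 180 sets of 4 to 6 libraries. The gap to the nearest library, as a share of the group's range, passed Dixon's 95% value in 22 sets. Chance gives about 1 in 20 for independent sets of normally distributed values. Here the sets of a group share their libraries and the genes entered as CPM without a log, so that rate does not apply. Female liver KI control 4 held 7 of the flags, and male liver WT NASH 1 and female macrophage KI control 4 held 4 each. None of these patterns was explained or tested further.

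In male liver WT NASH 1 was far above its group for Mki67 (gap 0.928 of the range; 26.2 CPM, nearest 5.86), Cdk1 (0.88; 10.6, nearest 2.65), Ccna2 (0.925; 9.07, nearest 2.49) and Ccnb2 (0.937; 8.42, nearest 1.71). KI NASH 2 was far below its group for Ccnb2 (0.911; 0.105 CPM, nearest 0.502).

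In female liver KI control 4 was far above its group for Top2a (0.866; 11.9 CPM, nearest 2.75), Cdk1 (0.907; 5.19, nearest 1.39), Ccna2 (0.9; 5.59, nearest 1.54), Ccnb2 (0.911; 2.4, nearest 0.771), Mcm6 (0.874; 56.4, nearest 10.5), Pcna (0.948; 46.9, nearest 19.4) and E2f1 (0.845; 11.6, nearest 2.79). WT control 1 was high for E2f1 (0.915; 3.5 CPM, nearest 2.21).

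In female macrophages KI control 4 was far above its group in mean log2 CPM over the 39 genes (0.861; 4.22, nearest 3.17), Mki67 (0.903; 120 CPM, nearest 55.8), Top2a (0.874; 64.1, nearest 26.6) and Ccnb2 (0.901; 8.14, nearest 4.13). WT control 3 was high for Mki67 (0.919; 179 CPM, nearest 111), and WT NASH 5 low in the mean (0.629; 3.35, nearest 3.79) and for Ccna2 (0.679; 8.24 CPM, nearest 13.1). In male macrophages WT control 4 was high for Cdk1 (0.849; 29.7 CPM, nearest 17.9), and KI NASH 5 low for Ccnb2 (0.754; 5.39 CPM, nearest 10.9).

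For Rrm2 a difference between groups passed its own test in 2 cases. The diet effect in female liver was lower in KI than in WT (difference -3.63, adjusted p = 0.023, edgeR). The effect of KI on the NASH diet in liver was lower in females than in males (difference -2.38, adjusted p = 0.016, edgeR). Sex and deposited table cannot be told apart in liver.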

How the results depend on the processing

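No gene followed through the alternatives changed its direction there. Those followed were the genes called in a comparison and, where few or none were called, also those of smallest p. Genes chosen in this way were unlikely to reverse. The median over the set changed sign under at least 1 alternative in 6 of 24 comparisons, all with main medians between -0.22 and 0.54. In male liver, the Rrm2 call between genotypes on the control diet fell to 0 with DESeq2's size factors in edgeR, with no filter, with the replicate block, without the library of contradicting sex genes and with only version 3 of the library deposited in 2 versions. DESeq2 gave 2 calls there, 7 for the male difference in diet effect, 2 for the female diet effect in KI, 4 for the female difference in diet effect, and 5 for the liver sex difference in diet effect. In macrophages DESeq2 gave 1 call for the male diet effect in KI and, in females, 5 for the diet effect in WT, 18 for KI against WT on the control diet and 1 on the NASH diet. The fit with the replicate block gave 1 and 2 calls for the diet effect in male WT and KI macrophages and 1 for the liver sex difference in diet effect, which was also 1 with both versions of the library kept. Leaving out WT control 2 and KI control 4 of female macrophages, chosen after seeing the data, gave 37 for KI against WT on the control diet. The mean log2 CPM of male liver WT controls, 0.33, was 0.24 with CPM of the library total and 0.13 with a prior count of 0.5.

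With single libraries left out, calls ranged in male liver from 10 to 25 for the diet effect in WT, 12 to 27 for KI against WT on the NASH diet and 0 to 1 on the control diet. In female liver they ranged from 1 to 2 for the difference in diet effect, 1 to 1 for the diet effect in KI and 0 to 1 for KI against WT on the control diet, and for the liver sex differences from 0 to 2 both for the diet effect in WT and for KI against WT on the NASH diet. In male macrophages they ranged from 0 to 1 for each diet effect, and in female macrophages from 0 to 5 for the diet effect in WT, 0 to 37 for KI against WT on the control diet and 0 to 1 on the NASH diet. The cause of these changes was not tested.

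A gene called in a comparison counts as 1 of 58 calls over all comparisons: the replicate block lost 3 of them and DESeq2 none of the 56 it gave an adjusted p. Over all fits with 1 library left out, these calls held 787 times and were lost 126 times. Many of these fits left out a library of a group outside the comparison. The 2 counts therefore do not show how often calls held without a library of the groups compared. In male liver few reads limit the mitotic genes: in WT controls Ccnb1 and Bub1 had 5 reads each over 3 libraries.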
